A study of Rattus norvegicus with 30 samples.

Results

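A set of 260 regions of the rat embryo cortex was described across 10 peak lists. At these, total histone H3 was called in both maternal diets, with no listed H3K4me3 within 2500 bp and no listed acetylated H4K16 in control. The regions were selected on measured values. Each is a distinct interval of the control total H3 list of at least 500 bp that overlapped a total H3 interval of the high fat diet (HFD) list, overlapped no control H4K16Ac interval, and had no H3K4me3 interval of either diet within 2500 bp of its edges. The control list held 169297 distinct total H3 intervals, of which 72096 were at least 500 bp wide and 65269 of these overlapped HFD total H3. A further 61256 dropped out because H3K4me3 lay nearby, which left 4013 stable distal intervals. Of these 4013, 3753 overlapped control H4K16Ac and 260 did not. The 260 were 0.154% of all distinct intervals and 6.48% of the stable distal ones.

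The data came from the frontal cortex of Wistar rat embryos at E14.5, from dams fed normal chow (control) or a diet with 60% of its calories from fat (HFD) before and during pregnancy, mated with healthy males. Chromatin was immunoprecipitated with 5 antibodies, to total H3, pan H4, H3K4me3, H4K16Ac and H3K27me3. Each antibody and diet had 3 libraries, from pooled cortices of litters per the study's methods, and the 3 libraries were merged into 1 peak list by the authors. The libraries of 1 list cannot be told apart, so that a difference between the diets has no replicate spread to be held against. Control total H3 replicate 3, which names both diets in its labels and was grouped by its title, is part of the list that defined the regions, and its share in the values below was not tested. The genome-wide background pileup behind the peak lists was 1.01 fragments per base for control and 1.13 for HFD total H3. It stood in for the depth of the libraries, which was not measured here. The cortex is a mixture of cells, so that a mark on few cells and a weak mark on many cannot be told apart.

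Histone H3 and histone H4 are core proteins of the nucleosome, and the total H3 and pan H4 antibodies recognise them without regard to a modification. H3K4me3, trimethylation of lysine 4 of H3, marks active and poised promoters. H4K16Ac, acetylation of lysine 16 of H4, is laid down mainly by the acetyltransferase MOF (KAT8), loosens the packing of nucleosomes, and is found at active genes and at many enhancers. H3K27me3 is the product of Polycomb repressive complex 2, whose catalytic subunit is EZH2, and is known for silencing developmental genes outside their lineage. The rule asked for no H3K4me3 of either diet nearby and no control H4K16Ac. The pan H4 and H3K27me3 lists were not used in the choice of regions. Nor was the HFD H4K16Ac list, though the control list of that antibody was.

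The total H3 peaks at these regions were short and weak, as a description of the values that chose them. Their median width was 601 bp, with a range from 500 to 1014 bp, and 256 of 260 (98.5%) held 1 summit. Control fold enrichment, the authors' ratio of the pileup at the summit to the local background, had a median of 3.47 and ran from 1.95 to 15.9. The median −log10 q, the authors' significance of the peak, was 2.49, from 0.323 to 32.2. A q of at most 0.05 was reached by 230 of the regions (88.5%). The distal intervals with control H4K16Ac had a median fold enrichment of 4.15 and a median −log10 q of 3.93, and those near H3K4me3 had 5.71 and 8.73. The regions were thus the weakest of the 3 sets of stable wide intervals by both medians. They were also the narrowest by the median. The median width was 638 bp at the distal intervals with control H4K16Ac and 769 bp near H3K4me3.

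A median pileup of 7 overlapping fragments lay at the control summits, with a 5th to 95th percentile of 5 to 15 and a highest value of 31. The distal intervals with control H4K16Ac had a median of 10 fragments, and those near H3K4me3 had 18. The local background under the regions had a median of 1.05 fragments per base. In 123 of 260 (47.3%) it was the genome-wide level of that list, 1.01 fragments per base, which was so for 29.8% of the distal intervals with control H4K16Ac and 8.35% of those near H3K4me3. A background of more than 4 fragments per base was found at 17 of the regions (6.54%) and at 20.5% of all wide intervals. At the distal intervals with control H4K16Ac the share was 8.34%, close to that of the regions. Most of the regions thus rested on few fragments above a low background.

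HFD total H3 overlapped every region by the rule. The HFD fold enrichment had a median of 3.29. The HFD −log10 q had a median of 2.06 and ran from 0.331 to 58.1. The ratio of HFD to control fold enrichment had a median of 0.947. Fold enrichment was lower in HFD at 150 regions and higher at 110. The median ratio was also 0.947 at the distal intervals with control H4K16Ac, and 0.985 at those near H3K4me3. By a fold of 1.5, 42 of 260 (16.2%) were lower in HFD, against 7.75% of the 65269 stable wide intervals, and 20 (7.69%) were higher, against 6.16%. No reading is drawn from these shares, since the control list chose the regions. The overlap of the peaks themselves was partial. The HFD interval was narrower than the control one at 225 regions (86.5%), with a median of 380 bp, and it covered a median of 55.8% of the region. In the mirror set, 303 HFD intervals chosen by the same rule with the diets exchanged, the order turned around, with median widths of 404 bp for the control and 588 bp for the HFD intervals. In both sets the narrower peaks were those of the diet without the width limit. The summits of the diets lay within 100 bp of each other at 163 regions (62.7%), at a median gap of 61.5 bp, and the gap was 61 bp at the distal intervals with control H4K16Ac.

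**Figure D1:**
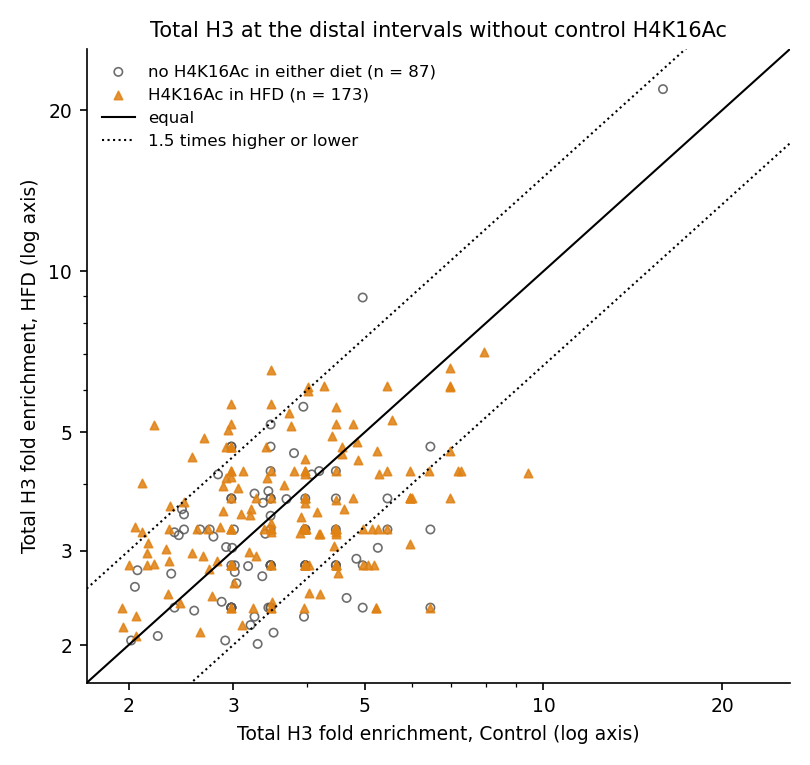
Total H3 fold enrichment of each of the 260 regions in control (x axis) and HFD (y axis), both on log axes, with triangles for the 173 regions that had H4K16Ac in HFD and circles for the 87 that had it in neither diet. The solid line marks equal values and the dotted lines a fold of 1.5. Most points lie between 2 and 7 on both axes, 42 lie below the lower dotted line, and 1 region stands apart at 15.9 and 21.9.

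That region was the strongest of the set. It lay on an unplaced scaffold of rn6, at positions 1108961 to 1109517, with a control −log10 q of 32.2 and an HFD −log10 q of 58.1. No interval of pan H4, H3K27me3 or HFD H4K16Ac overlapped it, its nearest H3K4me3 was 176604 bp away, and its pileup of 31 fragments over a background of 1.01 was the highest of the 260. It was thus a strong total H3 peak in both diets with no other mark listed over it.

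The other 4 of the 5 strongest regions had pan H4 in both diets and H4K16Ac in HFD. The region chr11:85931979-85932623 had a total H3 fold enrichment of 9.43 in control and 4.20 in HFD, with a −log10 q of 14.7 and 3.57. Its pan H4 fold enrichment was 4.54 in control and 7.85 in HFD, so that total H3 was lower and pan H4 higher in HFD at the same place. It also had H4K16Ac in HFD, at a fold enrichment of 3.30, and weak H3K27me3 in both diets, at 2.94 in control and 2.96 in HFD, which made it the only region of the 260 with a peak in all 5 of the other lists.

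The region chr3:32452048-32452571 was among the most even between the diets of the strong ones. Its total H3 fold enrichment was 7.94 in control and 7.05 in HFD, with summits 7 bp apart. Pan H4 was 4.54 in control and 7.14 in HFD, and HFD H4K16Ac reached 5.64, the highest of the set. At chr17:13096080-13096631 total H3 was 7.18 in control and 4.23 in HFD, and pan H4 was 3.03 and 3.57. At chr14:95077682-95078604, 923 bp wide, total H3 was 7.26 in control and 4.23 in HFD, but the summits lay 496 bp apart, so that the peaks of the diets shared a region more than a position.

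The widest regions were not among the 5 strongest. They were chr1:225786669-225787682 (1014 bp), chr3:153060579-153061568 (990 bp) and chr7:142231276-142232226 (951 bp), with control fold enrichments of 3.97, 3.47 and 4.44. All 3 had HFD H4K16Ac and HFD pan H4, and only the last had control pan H4, at a fold enrichment of 2.80.

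The limits of the rule cut through a continuous distribution. Just inside the width limit were chr5:151092389-151092888 and chrX:111639775-111640274, both 500 bp wide, with fold enrichments of 2.0 and 2.98. Just outside, at 499 bp, were chr1:86827619-86828117 (4.22), chr1:213252535-213253033 (2.98) and chr10:36845038-36845536 (6.95). Between 490 and 499 bp there were 27 intervals that met every other condition, with a median fold enrichment of 3.97, and between 500 and 509 bp there were 17, with 3.47. At the distance limit, chr8:129111842-129112591 lay 2522 bp from H3K4me3 and was taken, and chr6:131818625-131819306 lay 2499 bp away and was not, with fold enrichments of 4.51 and 3.45.

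Pan H4, the other core histone measured and a list that the rule did not use, had no listed peak at many of the regions. Here and below, a peak that is not listed is not a measured absence of the histone or mark. A control pan H4 interval overlapped 135 of 260 (51.9%, 95% Wilson interval 45.9 to 57.9%, which like all intervals here covers counting error only), and an HFD one overlapped 163 (62.7%, 56.7 to 68.3%). At the distal intervals with control H4K16Ac the shares were 84.7% (83.5 to 85.8%) and 91.1% (90.2 to 92.0%). Near H3K4me3 they were 95.9% and 98.3%, and over all 72096 wide intervals they were 92.3% and 94.3%. Thus the regions had pan H4 less often than the other 2 sets in both diets, by more than the width of the counting intervals. With 1 list per antibody and diet, this was not tested over samples.

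**Figure D2:**
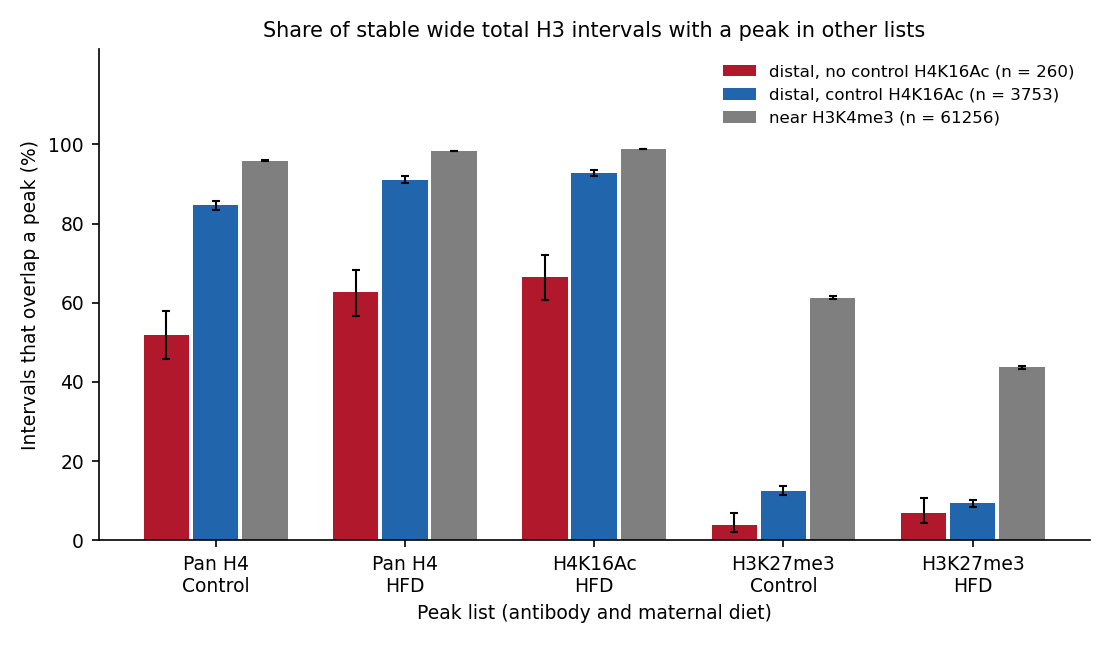
Share of intervals that overlapped a peak (y axis, percent) in the pan H4, H4K16Ac HFD and H3K27me3 lists (x axis), for the 260 regions, the 3753 stable distal intervals with control H4K16Ac and the 61256 stable intervals near H3K4me3. Bars start at 0 and error bars are 95% Wilson intervals. The regions have the lowest bar in each of the 5 lists, with 51.9% and 62.7% for pan H4.

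The pan H4 shares were also taken within classes of control total H3 −log10 q, by which the regions were weaker than the sets compared. Below 2, 41.4% of 87 regions had control pan H4 (31.6 to 51.9%), against 71.9% of 519 distal intervals with control H4K16Ac (67.9 to 75.6%). Between 2 and 5, it was 52.3% of 132 (43.8 to 60.6%) against 83.3% of 1917 (81.5 to 84.9%). At 5 or more, it was 73.2% of 41 (58.1 to 84.3%) against 91.8% of 1317 (90.2 to 93.2%). The share rose with the strength of total H3 in both sets, and was lower at the regions in every class. Strength was not matched within the classes, and the control list that gave it also chose the regions. The parts of total H3 strength and of interval width in the pan H4 shares were not tested. In the HFD list the shares of the regions were 52.9%, 65.2% and 75.6%, and those of the distal intervals with control H4K16Ac were 83.8%, 89.6% and 96.2%. Chromosome by chromosome, on the 20 chromosomes with at least 5 of the regions, the control pan H4 share was lower at the regions on 20 of 20, and the HFD share on 18 of 20, the exceptions being chromosome 8 (92.3% against 90.1%) and chromosome 18 (100% against 93.3%).

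**Figure D3:**
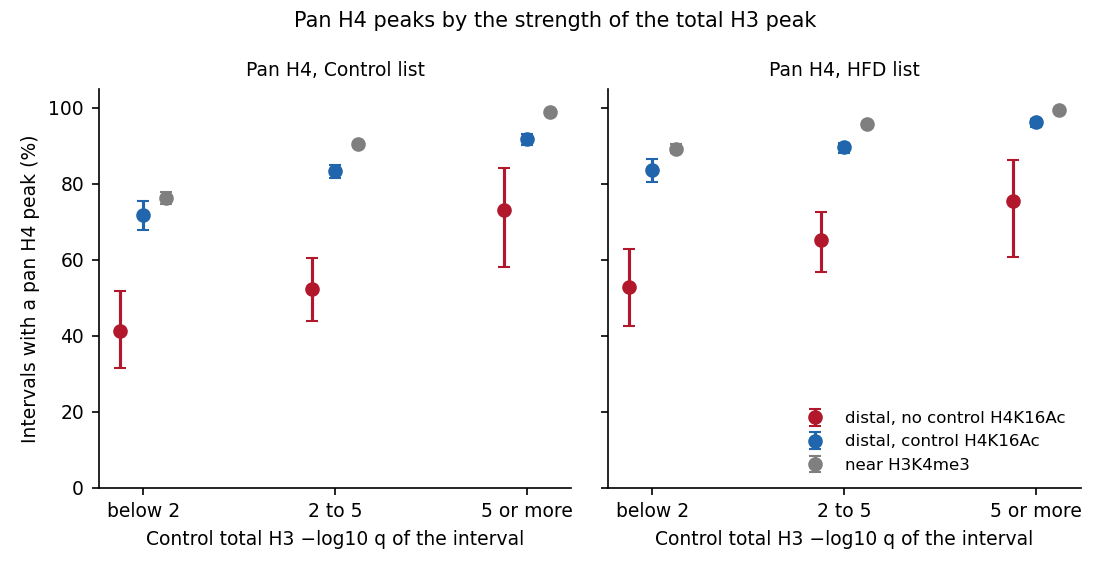
Share of intervals with a pan H4 peak (y axis, percent, with 95% Wilson intervals) by class of control total H3 −log10 q (x axis) in the control list (left) and the HFD list (right). The points of the regions lie below those of both other sets in every class, from 41.4% to 73.2% in control and from 52.9% to 75.6% in HFD.

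Where pan H4 was listed, its peaks at the regions were somewhat weaker than at the distal intervals with control H4K16Ac. The median fold enrichment was 3.39 in control and 3.57 in HFD, against 3.48 and 4.29, and the median −log10 q was 2.46 and 3.50, against 3.17 and 5.92. The summits of pan H4 lay close to those of total H3 of the same diet, at a median gap of 84 bp (control) or 55 bp (HFD). The gaps at the distal intervals with control H4K16Ac were 71 and 47 bp. The upper quartile of the control gaps at the regions was 212 bp, and an overlap with a short region limits the gap.

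Between the diets, pan H4 was listed at 92 of the regions in both, at 43 in control alone, at 71 in HFD alone and at 54 in neither. The 27.3% with pan H4 in HFD alone stand against 5.19% of all wide intervals, and the 16.5% in control alone against 3.12%. Few wide intervals lacked pan H4, so the shares were also taken among the intervals that could differ. Of the 125 regions without control pan H4, 56.8% (48.0 to 65.2%) had it in HFD, against 67.1% (65.9 to 68.3%) of the 5570 wide intervals without it. Of the 135 regions with control pan H4, 31.9% (24.6 to 40.1%) had none in HFD, against 3.38% (3.24 to 3.52%) of wide intervals. All wide intervals include those without HFD total H3. At the distal intervals with control H4K16Ac the same shares were 81.9% and 7.21%, in the mirror set 53.5% and 34.7%, and at the 619 intervals that met the rule except for HFD total H3 18.3% and 54.8%. The shares of the regions were thus close to those of the mirror set and differed from those of the other 2 sets in opposite directions. The 619 were chosen for having no HFD total H3 and the regions for having it, so no reading is drawn from that contrast. The HFD list rested on a genome-wide background of 1.80 fragments per base and the control list on 1.64, and its part in the larger HFD share was not tested.

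At the 92 regions with pan H4 in both diets, the ratio of HFD to control fold enrichment had a median of 1.19. It was over 1.5 at 22 (23.9%), against 24.0% of the 64279 wide intervals with pan H4 in both diets, and below the inverse of 1.5 at 7 (7.61%), against 1.55%. The first share was that of the background. The highest HFD pan H4 peaks by −log10 q were at chr3:146448233-146448943 (fold enrichment 3.17 in control and 6.70 in HFD, −log10 q 21.1 in HFD), chr5:24310512-24311128 (none in control, 9.08 in HFD, −log10 q 20.6) and chr4:4018526-4019058 (3.39 in control, 8.32 in HFD, −log10 q 15.7). At the second of these total H3 was also higher in HFD, at a fold enrichment of 5.04 against 2.94 in control, with summits 3 bp apart.

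No control H4K16Ac interval overlapped the regions, by the rule. An HFD H4K16Ac interval overlapped 173 of 260 (66.5%, 60.6 to 72.0%), and 87 had none in either diet. With only HFD peaks of a q of at most 0.05 the share was 46.2%. As the rule used the control list of this antibody, no gain in HFD is read from it. Of the 2140 wide intervals of any place without control H4K16Ac, 54.0% had it in HFD. In the mirror set, 220 of 303 intervals chosen for the absence of HFD H4K16Ac had it in control (72.6%, 67.3 to 77.3%). An interval of the mirror set overlapped 15 of the 260 regions (5.77%, and 4.95% of the 303). The mirror rule asked for an HFD interval of at least 500 bp without HFD H4K16Ac. Of the regions, 58 (22.3%) had an HFD total H3 interval that wide, and 87 had no HFD H4K16Ac. No reading is drawn from this overlap. With either diet used to leave acetylated intervals out, over 50% of those left had a listed peak in the other diet.

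The HFD H4K16Ac peaks over the regions were of low strength. Their fold enrichment had a median of 2.77 and ran from 1.74 to 5.64, the −log10 q had a median of 1.78, and the width a median of 591 bp. At the distal intervals with control H4K16Ac the HFD peaks had medians of 3.02, 2.52 and 860 bp. HFD H4K16Ac covered at least 50% of 141 regions (54.2%) and all of 41 (15.8%).

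The 87 regions without H4K16Ac in either diet were also poorer in pan H4. Pan H4 was listed at 42.5% of them in control and 42.5% in HFD (32.7 to 53.0% in both), and at 56.6% (49.2 to 63.8%) and 72.8% (65.8 to 78.9%) of the 173 with HFD H4K16Ac. The HFD intervals do not overlap, and the control ones do. Median control total H3 fold enrichment was 3.44 in the 87 and 3.90 in the 173. In the 87 the number with pan H4 was 37 in each diet, and in the 173 it was 98 in control and 126 in HFD.

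By combination, the most common pattern was pan H4 in both diets with HFD H4K16Ac, at 75 regions (28.8%), followed by HFD pan H4 with HFD H4K16Ac at 51 (19.6%). None of these 3 peaks was found at 30 regions (11.5%), with a median control total H3 −log10 q of 1.68 against 3.51 in the first pattern. With H3K27me3 counted as well, 28 regions (10.8%) had no peak in any of the 5 lists that the rule left free, 62 had 1, 89 had 2, 66 had 3, 14 had 4 and 1 had all 5. The median control −log10 q of the 28 was 1.93, below the 2.49 of the whole set, and the region of the highest total H3, on the unplaced scaffold, was nevertheless one of them.

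**Figure D4:**
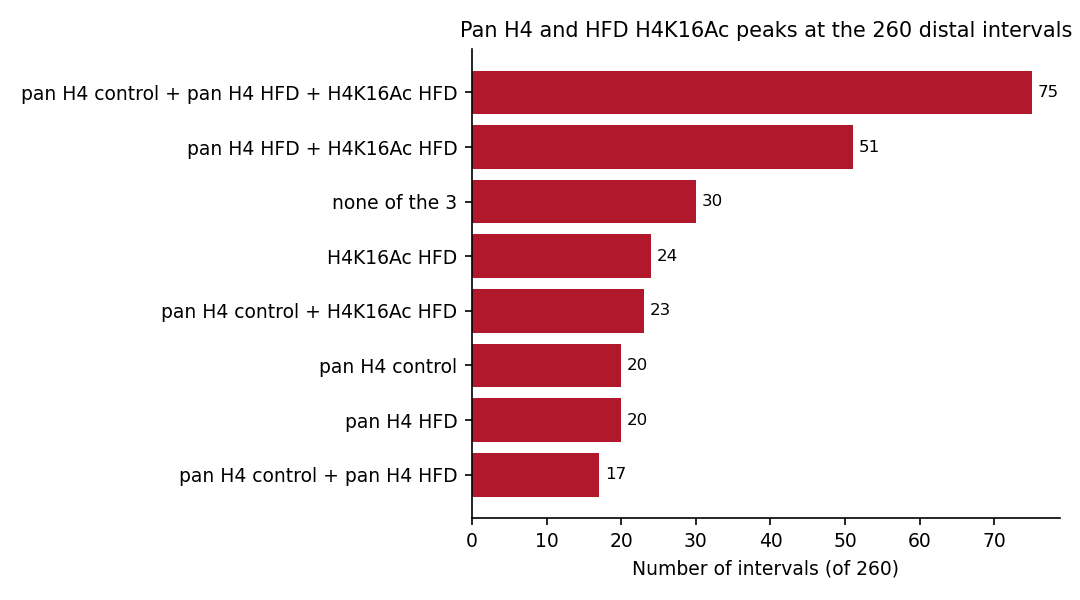
Number of the 260 regions (x axis) with each combination of control pan H4, HFD pan H4 and HFD H4K16Ac peaks (y axis). The 2 longest bars, 75 and 51 regions, both hold HFD pan H4 with HFD H4K16Ac, and 30 regions have none of the 3 peaks.

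H3K27me3 was rare. It was listed at 10 regions in control (3.85%, 2.10 to 6.93%) and at 18 in HFD (6.92%, 4.42 to 10.7%), with 1 region in both, so that 233 of 260 (89.6%) had none. The distal intervals with control H4K16Ac had it at 12.5% (11.5 to 13.6%) in control and 9.35% (8.46 to 10.3%) in HFD, and the intervals near H3K4me3 at 61.3% and 43.7%. In control the share of the regions was lower than that of the distal intervals with H4K16Ac by more than the counting intervals, and in HFD the intervals overlapped. Within classes of total H3 strength, the control intervals of the 2 sets were apart between 2 and 5 (3.03% against 11.9%) and overlapped in the other 2 classes.

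Each H3K27me3 peak over a region was faint. The highest −log10 q was 1.55 in control and 1.31 in HFD, and 1 peak in each diet reached a q of 0.05. In the control list the strongest by −log10 q were at chr7:119702389-119703011 (fold enrichment 3.25, −log10 q 1.55), chr11:85931979-85932623 (2.94, 1.08) and chr3:134910391-134911043 (2.88, 1.00). Of all wide intervals, 6.71% had H3K27me3 in HFD alone and 22.3% in control alone, and of the regions 6.54% and 3.46%. Few regions had H3K27me3, so the shares were also taken among the intervals that could differ. Of the 10 regions with a control peak, 90.0% (59.6 to 98.2%) had none in HFD. This was so for 41.4% of wide intervals and 83.0% of the distal intervals with control H4K16Ac. Of the 250 regions without a control peak, 6.80% (4.29 to 10.6%) had one in HFD, against 14.5% and 8.26%. The HFD H3K27me3 list rested on a background of 0.351 fragments per base against 0.880 in control, 39.9% of it, and the part of this in the counts was not tested. The HFD over control ratio of intervals with H3K27me3 was 0.711 over all wide intervals and 0.745 at the distal intervals with control H4K16Ac. At the regions the ratio was 1.80, from 18 against 10, with counting intervals of the shares that overlapped. It moved with the settings, to 1.18 at a width of 300 bp, 1.00 at a q of at most 0.05, 3.0 with 50% of the region covered, 6.0 beyond 10000 bp from H3K4me3, and 0 with a −log10 q of at least 5 in every list.

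The regions lay away from listed H3K4me3 by the rule, and most had control H4K16Ac within 10000 bp. The nearest H3K4me3 interval of either diet was at a median of 6185 bp, farther than 10000 bp at 91 regions (35.0%) and farther than 100000 bp at 6, and 2 lay on a sequence with no H3K4me3. The distal intervals with control H4K16Ac had a median of 5356 bp, and 25% were farther than 10000 bp. Control H4K16Ac, which the rule kept off the regions themselves, lay within 2500 bp of 79 (30.4%) and within 10000 bp of 198 (76.2%), at a median of 4062 bp.

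Coverage by other peaks was also taken along the flanks. Between 10 and 20 kb from the centre, control H4K16Ac covered a mean of 12.1% of the regions' flanks and 15.9% of those of the distal intervals with control H4K16Ac. For control pan H4 the values were 6.68% and 8.08%, and for control H3K27me3 2.73% and 3.28%. In a window of 100 kb, control H4K16Ac covered a median of 8.94 kb around the regions and 14.4 kb around the distal intervals with H4K16Ac, part of which the rule sets, since the window holds the interval itself. Control total H3 covered 5.06 and 7.0 kb. In the HFD lists the same windows held 8.90 and 12.2 kb of H4K16Ac and 4.51 and 6.27 kb of total H3. Nearer to the regions the order was mixed, and at 2 kb control pan H4 stood at 3.46% and 3.17%. At the centre, control pan H4 covered 43.1% of the regions and 74.5% of the others. HFD H4K16Ac covered 55.4% and 87.1%, where the sets had been split by control H4K16Ac.

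**Figure D5:**
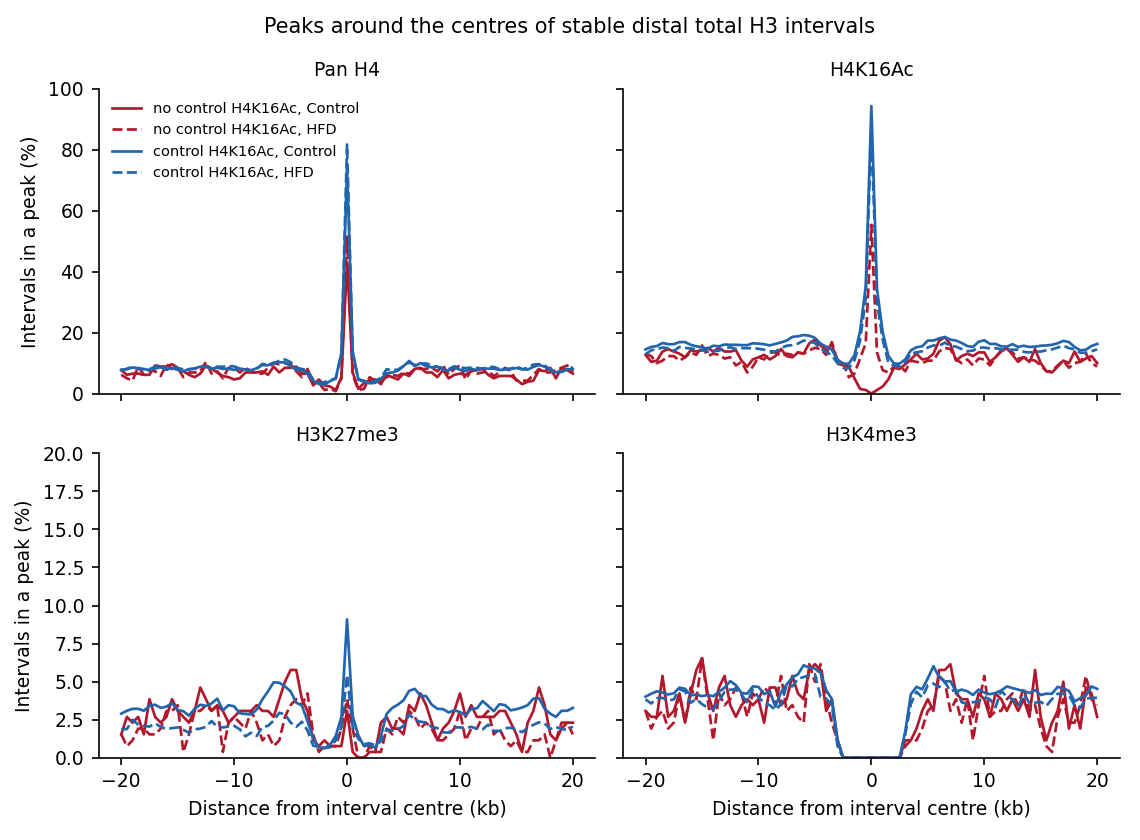
Share of intervals (y axis, percent) that lay in a peak at each distance from the interval centre (x axis, kb, in steps of 500 bp), for the 260 regions and the 3753 distal intervals with control H4K16Ac, in control (solid) and HFD (dashed). The upper panels run to 100% and the lower panels to 20%. Pan H4 and HFD H4K16Ac form a sharp peak at the centre that is lower at the regions, and the gap in H3K4me3 around the centre is set by the rule.

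The regions were spread over all autosomes and X. Chromosomes 1 to 20 held 238, X held 14, Y held none and unplaced scaffolds held 8, and the closest pair lay 81808 bp apart. Per 1000 wide total H3 intervals there were 3.42 regions on chromosomes 1 to 20, with a range from 1.76 on chromosome 20 to 5.26 on chromosome 6. There were 7.50 on X, and 13.5 on unplaced scaffolds and the mitochondrial genome counted together. As a share of the stable distal intervals, the regions made up 12.5% on X (14 of 112, 7.59 to 19.9%) and 6.17% on chromosomes 1 to 20 (238 of 3859, 5.45 to 6.97%). These shares describe the rule's own criterion in 1 merged list, and no difference of X is read from them. Pan H4 was listed at 71.4% of the 14 regions on X in each diet. Of the 8 regions on unplaced scaffolds, 2 had control pan H4 and 3 had HFD pan H4.

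At single regions the largest differences in total H3 between the diets went either way. The highest ratio of HFD to control fold enrichment, 2.33, was at chr12:9796308-9796982, where total H3 was 2.21 in control and 5.15 in HFD, pan H4 was 3.45 and 5.86, and HFD H4K16Ac was 4.38. At chr6:100715749-100716288 total H3 was 2.11 in control and 4.02 in HFD with no pan H4 in either diet. At chr15:22648687-22649254 it was 2.98 and 5.64, with pan H4 in HFD alone at 5.0. At the first and last of these the summits of the diets lay 477 and 410 bp apart.

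In the other direction, chr4:10582417-10583209 and chr6:77378664-77379176 both had a total H3 fold enrichment of 6.45 in control and 2.35 in HFD, a ratio of 0.364, and both had control pan H4 at 3.41. In HFD the first had neither pan H4 nor H4K16Ac, while the second had both, at 2.86 and 2.68. The next lowest ratio, 0.445, was that of chr11:85931979-85932623. Pan H4 was thus also lower or not listed in HFD at 2 of these 3 regions, and higher at the other.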

How the data were processed

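ChIP-seq peaks of 5 antibodies in control and HFD E14.5 cortex were analysed from 10 deposited lists, each called by the authors on 3 libraries together. Bowtie2 alignment to rn6 and MACS2 peak calling were done by the authors, and the submitters' processing notes also name deepTools. Versions and input are not given in the sources used here. Per peak, the deposited values are a score (10 times the −log10 q, cut to a whole number), a fold enrichment (ratio to local background), a −log10 p-value and a −log10 q-value. In the 6 narrow lists these belong to the summit, and in the 4 broad ones they were averaged along the peak. The deposited lists reach a q of up to 0.500.

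The regions and the sets compared with them were chosen with earlier results of these data known. Intervals listed several times were taken once, with the summit of highest −log10 q, and an overlap was at least 1 bp. Where several intervals overlapped a region, the one with the highest −log10 q gave the values. Pileup k and background b were solved from fold enrichment (k + 1) / (b + 1) and the Poisson p, which gave a whole k to within 0.1% for 260 of 260 regions. Shares have 95% Wilson intervals for counting error, and no test was run, as regions are not replicates and each antibody and diet has 1 list. Regions named are the 5 with the highest control total H3 −log10 q, the 3 widest, the 3 highest in −log10 q of HFD pan H4 and of control H3K27me3, the 3 highest and 3 lowest ratios of HFD to control total H3 fold enrichment, and those at the limits. Alternatives changed the width, the distance, the threshold, the overlap, the acetylation rule and the sequences used, and the mirror set, the classes of strength and a q of at most 0.05 were added after seeing the data. Genes and sequences were not analysed here, because the reference tables used another build than rn6. Coordinates are counted from 1 in rn6. Computation used scipy 1.17.1, pandas 2.3.3, numpy 2.4.6 and matplotlib 3.10.9 under Python 3.11.15, and interval functions and the pileup solution were tested on simulated data.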

Additional observations from a re-analysis of the deposited data

How the results depend on the processing

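The alternatives gave 89 values, as the diets exchanged and the q of at most 0.05 were run for some results only, and 48 of the 89 stayed within their counting interval or within a fold of 1.5. With a width of at least 300 bp there were 2028 regions, HFD pan H4 was at 55.7%, median total H3 fold enrichment was 3.95 in control and 3.39 in HFD, and the HFD over control ratio of regions with H3K27me3 was 1.18. A width of 1000 bp left 1 region, and total H3 peaks of −log10 q of at least 5 left 9, too few for further values. With H3K4me3 farther than 1000, 5000 and 10000 bp there were 398, 152 and 91 regions, with a median control fold enrichment of 3.44, 3.97 and 3.97 and an HFD one of 3.26 at 1000 bp, and at 10000 bp control H3K27me3 was at 1.10% and its ratio 6.0. With only peaks of −log10 q 5 or more in the 10 lists there were 7573 regions, as weak H4K16Ac and H3K4me3 no longer left intervals out. Of them 0.291% had H3K27me3 in control and 0% in HFD (ratio 0, reversed), and 25.3% had HFD H4K16Ac. Pan H4 was at 54.1% in control and 93.9% in HFD, and the total H3 fold enrichments were 5.52 and 5.64. The sets compared with the regions were not recomputed under these settings. With 50% of the interval covered there were 166 regions, with H3K27me3 at 1.20% and 3.61% (ratio 3.0), HFD H4K16Ac at 60.2% and control pan H4 at 44.6%. Without H4K16Ac in either diet there were 87, with pan H4 at 42.5% in both diets and fold enrichments of 3.44 and 3.04. At a q of at most 0.05 in the other lists, H3K27me3 was at 0.385% in both diets (ratio 1.00), HFD H4K16Ac at 46.2% and control pan H4 at 41.9%. With the diets exchanged, 72.6% had H4K16Ac in the other diet. Leaving out unplaced scaffolds moved no value. The cause of the other moves was not tested. No paired analysis was possible because the 3 libraries behind a list were merged, and for the same reason no library could be left out.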

Other observations

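A larger set than the 260 regions met the same conditions except that no HFD total H3 was listed, with 619 intervals. Their total H3 was weaker still, at a median control fold enrichment of 3.16 and −log10 q of 1.98. Pan H4 was listed at 42.5% of them in control (38.7 to 46.4%) and 29.7% in HFD (26.3 to 33.4%), and HFD H4K16Ac at 33.4% (29.8 to 37.2%). Here HFD pan H4 was the less frequent of the 2, the opposite order to that of the 260 regions, which the presence of HFD total H3 set apart from the 619. H3K27me3 was at 2.26% in each diet.

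In the mirror set of 303 HFD intervals, chosen by the same rule with the diets exchanged, pan H4 was listed at 58.1% in control (52.5 to 63.5%) and 60.4% in HFD (54.8 to 65.7%), and H3K27me3 at 4.62% and 5.28%. Both pan H4 shares were below the 84.7% and 91.1% of the distal intervals with control H4K16Ac. Those intervals came from the control list, and no set with HFD as the base was built for comparison. The HFD over control ratio was 1.04 times in the mirror set and 1.21 times at the 260 regions.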
